A study of Homo sapiens with 6 samples.

Results

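TXNL4A and 8 genes named with it were followed in RNA-seq of 8505C cells, an established cell line of anaplastic thyroid cancer (ATC). The 8 are its paralog TXNL4B and PRPF8, EFTUD2, SNRNP200, SNRNP40, PRPF6, DDX23 and CD2BP2, which encode proteins of the U5 small nuclear ribonucleoprotein (snRNP) or of its assembly. They were chosen by name, as TXNL4A was among the genes with the lowest measured values in siNUF2 relative to siCtrl. The 9 genes were 9 of 32985 in the deposited table, and all 9 were among the 11725 genes tested, those with a mean of at least 1 FPKM (fragments scaled by transcript length and by library size) over the 6 libraries.

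The spliceosome removes introns from pre-mRNA, and its U5 snRNP holds the exon ends in place during both steps of the reaction. PRPF8 is the scaffold around the catalytic RNA, EFTUD2 is a GTPase and SNRNP200 is the helicase that unwinds U4 from U6, and TXNL4A is a small protein with a thioredoxin fold that sits in the same particle. U5 joins U4/U6 to form the tri-snRNP, with PRPF6 as a bridge between them, before it enters the spliceosome.

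The study asked which genes respond to loss of NUF2, a subunit of the NDC80 kinetochore complex. 3 libraries came from cells given a control siRNA (siCtrl, labelled WT) and 3 from cells given an siRNA to NUF2 (siNUF2, labelled NUF2 knockdown), all at 24 h. A single siRNA sequence to NUF2 was used in one cell line, so effects of that sequence and of NUF2 loss cannot be told apart by design. Nothing in the labels says that libraries of a group came from separate cultures, so p-values measure only the spread between these libraries, which may be technical. Libraries carry the numbers 1 to 3 in both groups.

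Libraries held 61257859 to 69755291 counts each. NUF2 itself had 14.8, 14.5 and 12.2 FPKM in siCtrl and 1.53, 2.05 and 1.56 FPKM in siNUF2, that is 12.4% of the siCtrl mean (log2 fold change -2.99, SE 0.17, edgeR's quasi-likelihood test, adjusted p = 5.1e-04). Of the thyroid lineage genes, NKX2-1 (mean 18.6 FPKM in siCtrl) and HHEX (5.93 FPKM) were present, PAX8 was at 0.575 FPKM, and TG, SLC5A5 and FOXE1, which mark differentiated thyroid cells, had 0 to 12 counts in every library. KRT7 (466 FPKM), KRT8, KRT18 and VIM (499 FPKM) were abundant, and EPCAM and CDH1 were near 0. FN1 and CDH2 were also present, at 26.9 and 9.38 FPKM. TSHR was not found by name in the deposited values and so was not analysed. Of 8 markers of blood, endothelial and stromal cells, 7 averaged under 1 FPKM in both groups, and CD68 had 5.69 FPKM in siCtrl and 5.32 in siNUF2. Some differed by library number: PTPRC had 389, 4 and 0 counts in siCtrl and 106, 14 and 4 in siNUF2. DCN went the other way, with 16, 160 and 177 counts in siCtrl and 40, 165 and 305 in siNUF2. COL1A1 and LUM passed 1 FPKM in single libraries (1.63 and 1.54 in siNUF2 library 2).

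TXNL4A (ENSG00000141759, also known as DIM1) lies on the minus strand of chromosome 18 from 79970813 to 80033949 of GRCh38, and no other gene in the table overlaps it. Its canonical transcript in GENCODE release 44 has a coding sequence of 429 nt for 142 residues and a 3′ UTR of 2872 nt. TXNL4B (ENSG00000140830) lies on the minus strand of chromosome 16 from 72044289 to 72094431, with a coding sequence of 450 nt for 149 residues and a 3′ UTR of 1780 nt. It overlaps DHX38 on the other strand by 819 bp, and since the strand setting of the counting is not stated, reads from that stretch cannot be assigned with certainty.

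Both 3′ UTRs hold the letters TATGGAA, which pair with the seed (bases 2 to 8) of the guide strand in the siRNA against NUF2. These sites are shown because the pair of paralogs share them, with the same base after each, while their levels differed as described further on. Each window is 30 bases of GRCh38, written 5′ to 3′ on the transcript strand with the 7 letters in capitals.
TXNL4A, chr18:79973622-79973651 (minus strand), 3′ UTR: agccctttttgTATGGAAacgttttaagct
TXNL4B, chr16:72085673-72085702 (minus strand), 3′ UTR: ataaaatttaaTATGGAAagtgagaatttg
The copy in TXNL4A begins at base 45 of the 3′ UTR and that in TXNL4B at base 946. In both, the next base is an A, so that each also holds TATGGAAA. The search was made on the transcript strand only, and ATGGAA (6 letters) and ATGGAAA overlap these sites. The 3′ UTR of TXNL4A also holds a second copy of the 6 letters, outside this site.

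TATGGAA was found in the longest 3′ UTR of 1637 of 10173 tested genes (16.1%) and TATGGAAA in that of 775 (7.62%). The 3′ UTRs of the other 7 genes held no TATGGAA: those of PRPF8 (173 nt), EFTUD2 (1326 nt), SNRNP200 (674 nt), SNRNP40 (504 nt), PRPF6 (107 nt), DDX23 (713 nt) and CD2BP2 (2212 nt). EFTUD2 and CD2BP2 had 1 copy of ATGGAA there, which was in 46.2% of all 3′ UTRs. The coding sequences of PRPF8, SNRNP200 and PRPF6 had 1 TATGGAA each, and only that of PRPF8 was followed by an A, as TATGGAAA. These matches describe the letters in a transcript and not a site that was shown to be bound.

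TXNL4A was at 10.8, 11.4 and 12.5 FPKM in the siCtrl libraries and at 2.08, 1.97 and 2.48 FPKM in the siNUF2 libraries. Every siNUF2 library lay far below every siCtrl library, and the spread within each group was small beside the distance between them. The means were 11.5 ± 0.865 FPKM in siCtrl and 2.18 ± 0.266 FPKM in siNUF2 (SD, n = 3 each), which leaves 18.9% of the level in siCtrl. The counts behind these values were 4530, 4809 and 4842 in siCtrl and 843, 831 and 932 in siNUF2. On the log2 scale the counts differed by -2.38 (SE 0.13, 95% interval -2.69 to -2.08). It stood at rank 9 from the lowest of 11725 genes tested, with NUF2 at rank 5. As TXNL4A was chosen for this difference, the values are a description and no test is given. The interval makes no allowance for that choice. In bulk RNA, fewer cells that express a gene and less RNA per cell cannot be told apart.

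TXNL4B, a paralog of TXNL4A with the same fold that is also tied to pre-mRNA splicing, had 9.11, 9.39 and 8.58 FPKM in siCtrl and 9.31, 8.80 and 8.68 FPKM in siNUF2. The groups overlapped fully, with a log2 fold change of 0.00 (SE 0.11, 95% interval -0.24 to 0.25, adjusted p = 0.990), so the interval holds changes of up to 0.25 on the log2 scale either way. The ratio of TXNL4A to TXNL4B in FPKM was 1.18, 1.21 and 1.45 in siCtrl and 0.223, 0.224 and 0.285 in siNUF2. Thus TXNL4A was the higher of the pair in every siCtrl library and the lower in every siNUF2 library.

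**Figure D1:**
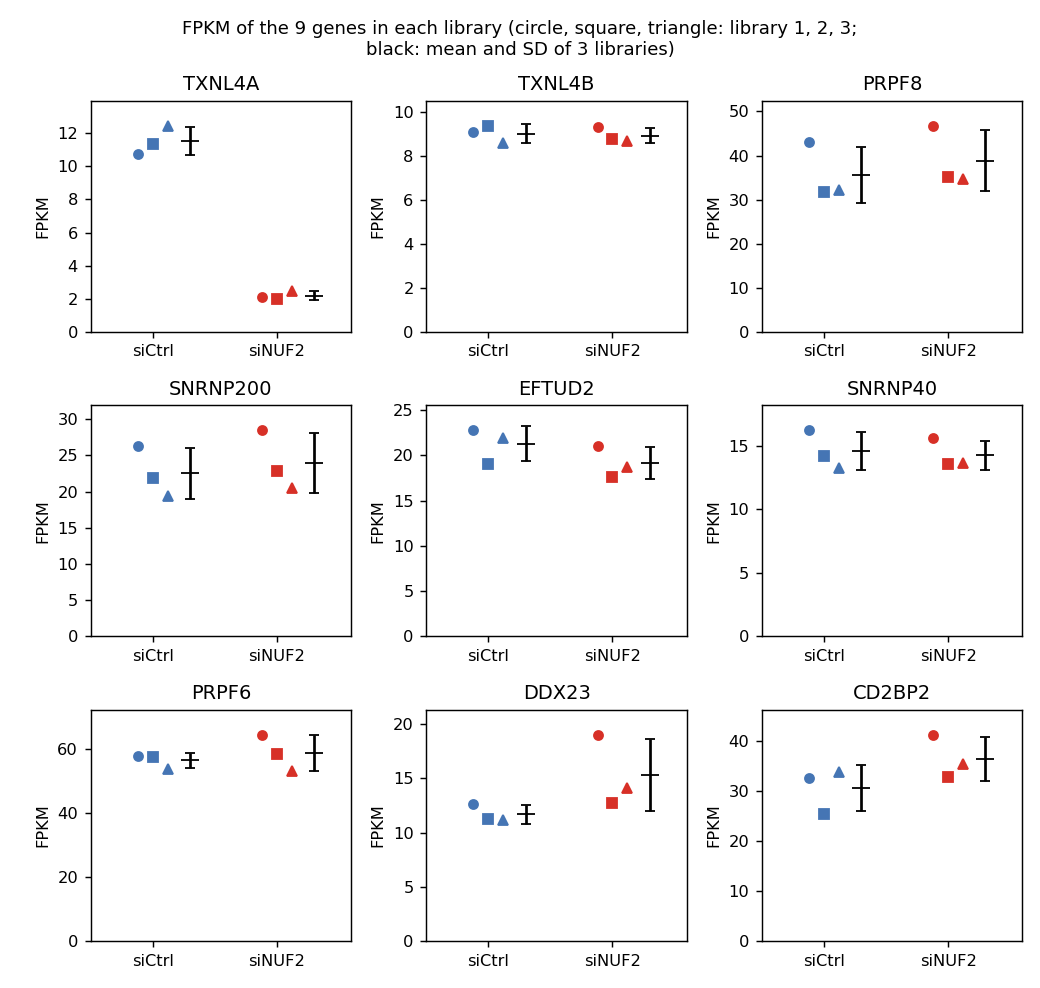
FPKM (y axis, from 0) of the 9 genes in the siCtrl and siNUF2 libraries, with a circle, a square and a triangle for libraries 1, 2 and 3 and the mean with SD in black. The siNUF2 libraries of TXNL4A sit between 1.97 and 2.48 FPKM against 10.8 to 12.5 in siCtrl, while the groups overlap in 7 of the other 8 genes, DDX23 being the exception.

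None of the other 8 genes passed the test (0 of 8 at an adjusted p under 0.05, quasi-likelihood test of edgeR, Benjamini-Hochberg adjusted over all genes tested), beside 3.99% of all genes tested. DDX23 was the 1 gene of the 8 with an unadjusted p under 0.05 in edgeR, beside 2129 of the 11725 genes tested. DESeq2, limma and the F-test each called 0. The median log2 fold change of the 8 was 0.10 with 5 of 8 above 0, beside 0.00694 and 51.1% above 0 for all genes tested. Groups of 3 libraries that did not overlap in FPKM were seen for DDX23 alone among the 8 (higher in siNUF2), a pattern shown by 23.9% of all genes tested.

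Among the core proteins, PRPF8 had 43.0, 31.8 and 32.2 FPKM in siCtrl and 46.8, 35.1 and 34.7 FPKM in siNUF2. In both groups library 1 stood above the other two, and the groups differed by 0.14 on the log2 scale (SE 0.16, 95% interval -0.22 to 0.51, adjusted p = 0.714). SNRNP200, the U4/U6 helicase, had the same form, with 26.3, 21.8 and 19.4 FPKM in siCtrl and 28.5, 22.8 and 20.5 FPKM in siNUF2, and a log2 fold change of 0.11 (SE 0.15, 95% interval -0.24 to 0.46, adjusted p = 0.783).

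EFTUD2, the GTPase, had 22.8, 19.1 and 21.96 FPKM in siCtrl and 21.0, 17.6 and 18.7 FPKM in siNUF2. The groups overlapped, with a log2 fold change of -0.14 (SE 0.11, 95% interval -0.38 to 0.11, adjusted p = 0.586), the lowest value of the 8. SNRNP40, a protein of WD40 repeats in the same particle, had 16.2, 14.2 and 13.3 FPKM in siCtrl and 15.6, 13.5 and 13.6 FPKM in siNUF2. Its log2 fold change was -0.01 (SE 0.11, 95% interval -0.27 to 0.24, adjusted p = 0.969).

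PRPF6, the bridge of the tri-snRNP, had 58.0, 57.5 and 53.8 FPKM in siCtrl and 64.5, 58.5 and 53.3 FPKM in siNUF2. The groups overlapped, with a log2 fold change of 0.08 (SE 0.10, 95% interval -0.15 to 0.30, adjusted p = 0.746). CD2BP2, which binds TXNL4A through its GYF domain and is part of U5 before the tri-snRNP forms, had 32.5, 25.4 and 33.9 FPKM in siCtrl and 41.3, 32.7 and 35.3 FPKM in siNUF2. The lowest siNUF2 library lay within the siCtrl range, and the log2 fold change was 0.27 (SE 0.14, 95% interval -0.05 to 0.59, adjusted p = 0.355).

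DDX23, the RNA helicase that helps U1 to leave the 5′ splice site as the tri-snRNP is taken up, had 12.6, 11.2 and 11.2 FPKM in siCtrl and 19.0, 12.8 and 14.1 FPKM in siNUF2. All siNUF2 libraries were above all siCtrl libraries, and siNUF2 library 1 stood well above the other two. The means were 11.7 ± 0.835 and 15.3 ± 3.31 FPKM (SD, n = 3 each). Its log2 fold change was 0.41 (SE 0.15, 95% interval 0.06 to 0.75), with an adjusted p of 0.201. When the replicate number entered the fit as a block, the adjusted p was 0.0278 and the log2 fold change 0.39, and DDX23 was the 1 member of the 8 called in that fit, which called 14.5% of all genes tested. Without siNUF2 library 1 the log2 fold change was 0.23 (adjusted p = 0.447, without the block).

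**Figure D2:**
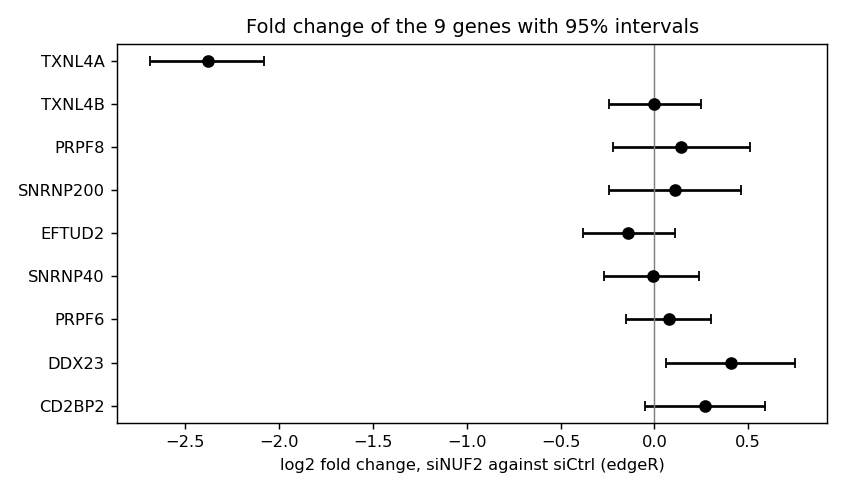
The log2 fold change of counts in siNUF2 against siCtrl (x axis, edgeR) for the 9 genes, with bars for the 95% interval. TXNL4A, chosen for its difference, stands at -2.38, and its interval is a description only. The other 8 lie between -0.14 and 0.41, of which DDX23 alone has an interval above 0.

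Set beside the other U5 genes, TXNL4A made up 4.65%, 5.64% and 6.03% of the summed FPKM of the 9 genes in siCtrl and 0.838%, 0.968% and 1.23% in siNUF2. For each 100 FPKM of PRPF8 there were 25, 35.8 and 38.7 FPKM of TXNL4A in siCtrl and 4.44, 5.62 and 7.14 in siNUF2. The sum of the other 8 genes was 202 ± 16.4 FPKM in siCtrl and 216 ± 26.4 FPKM in siNUF2 (SD, n = 3 each). By library number it was 221 and 246, 190 and 202, and 194 and 199 FPKM, so that siNUF2 was the higher in each of the 3 pairs, and this sum was not tested. These are ratios of mRNA, and the proteins were not measured in these libraries.

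By FPKM in siCtrl the 9 genes ran from PRPF6 (56.4), PRPF8 (35.7), CD2BP2 (30.6), SNRNP200 (22.5), EFTUD2 (21.3), SNRNP40 (14.6), DDX23 (11.7) and TXNL4A (11.5) to TXNL4B (9.03). The ranges of neighbours overlapped between PRPF8 and CD2BP2, CD2BP2 and SNRNP200, SNRNP200 and EFTUD2, and DDX23 and TXNL4A. TXNL4A lay at the 70.3 percentile of the genes tested in siCtrl, next to DDX23 at 70.6, and PRPF6 at the 94.7. In siNUF2, TXNL4A was the last of the 9, below TXNL4B with no overlap.

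The place of PRPF6 depended on the length used. By counts per kb of the canonical transcript, PRPF6 had a mean of 4440 ± 382 and PRPF8 of 4378 ± 891 in siCtrl (SD, n = 3 each), and their ranges overlapped. EFTUD2 followed with 3923 counts per kb, at rank 3 against 5 by FPKM. CD2BP2 moved the other way, to rank 6 with 2649 counts per kb against rank 3 by FPKM. On that scale too, TXNL4A (1361 counts per kb) and TXNL4B (886) were the lowest in siCtrl, and TXNL4A was the lowest in siNUF2 (250.2).

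Libraries of the same number in both groups shared part of their deviation, which was tested after the values were seen. The log2 FPKM of library 1 minus the mean of libraries 2 and 3 was 0.42 in siCtrl and 0.42 in siNUF2 for PRPF8, and 0.35 and 0.40 for SNRNP200. These were the 2 of 9 genes for which the replicate number passed the test (adjusted p = 0.0208 and 0.0285, edgeR's quasi-likelihood test of the number), beside 7.6% of all genes tested. For DDX23 the differences were 0.18 and 0.51, and for CD2BP2 0.15 and 0.28, with adjusted p of 0.124 and 0.146. TXNL4A went the other way, with -0.15 and -0.09 (adjusted p = 0.272). PRPF8 and SNRNP200 have the longest transcripts of the 9, with 7280 and 7194 nt, and whether length has a part in this was not tested.

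**Figure D3:**
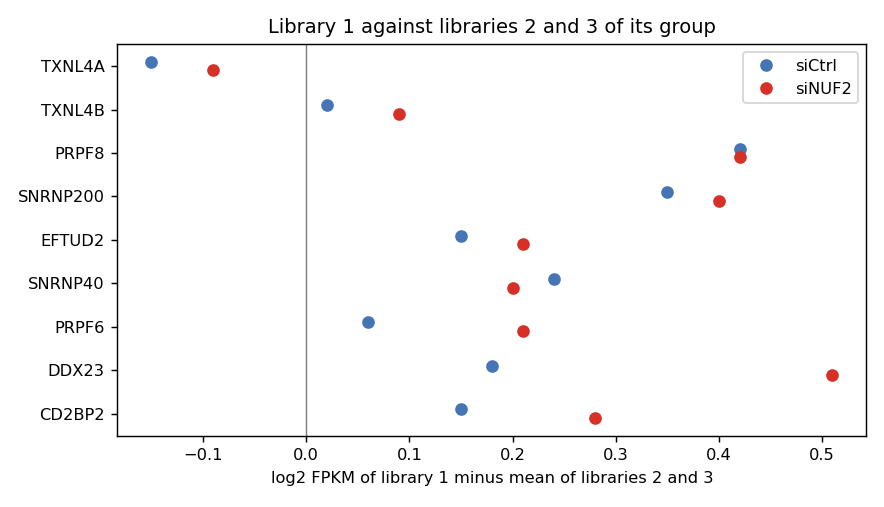
The log2 FPKM of library 1 minus the mean of libraries 2 and 3 of its group (x axis) for the 9 genes, in blue for siCtrl and red for siNUF2. PRPF8 lies at 0.42 in both groups and SNRNP200 at 0.35 and 0.40, while TXNL4A is the 1 gene below 0 in both.

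The other proteins of the spliceosome were followed in 11 lists with 84 genes, all tested. Of these, 2 were lower and 2 were higher at an adjusted p under 0.05, beside 289 lower and 179 higher of all genes tested. The median log2 fold change was 0.09 with 71.4% above 0, beside 0.00694 and 51.1% for all genes. In the fit with the replicate number as a block, 2 were lower and 8 higher, beside 927 lower and 778 higher of all genes tested (14.5%). The log2 fold changes ran from -0.88 to 0.81.

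Both lower genes belong to the LSm ring, which binds the end of U6 RNA. LSM4, a subunit of the nuclear ring and of the ring used in mRNA decay, had 35.5, 40.9 and 36.9 FPKM in siCtrl and 19.5, 22.3 and 18.9 FPKM in siNUF2. It fell to 53.5% of the control mean (log2 fold change -0.88, SE 0.11, adjusted p = 0.00672), and it was called without each library in turn (adjusted p up to 0.0419) but not by the F-test on log2(FPKM + 1) (adjusted p = 0.0584). LSM5 had 14.3, 14.3 and 13.7 FPKM in siCtrl and 10.2, 10.7 and 10.5 FPKM in siNUF2 (log2 fold change -0.41, SE 0.09, adjusted p = 0.0416), and its call was lost without any 1 library (adjusted p 0.0782 to 0.160), while the F-test called it (adjusted p = 0.0410). In edgeR's fit with the replicate block LSM4 and LSM5 were both called (adjusted p = 0.00077 and 0.0111). The other 5 LSm genes had log2 fold changes from 0.03 to 0.23.

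The 3′ UTR of LSM4 (1228 nt) also holds 1 TATGGAA, followed by an A, at base 521, and is shown for comparison with the paralogs above.
LSM4, chr19:18306925-18306954 (minus strand), 3′ UTR: ctctcttgtgtTATGGAAataaaaacaaat
LSM5 held 1 ATGGAA and no TATGGAA. Of the 83 spliceosome genes with a known 3′ UTR, 13 held TATGGAA. Their median log2 fold change was 0.0377 against 0.106 for the other 70, without matching for 3′ UTR length. Among these 13, SNRPD1 (-0.14), LSM3 (0.03), LSM8 (0.07), SNRPB2 (-0.02) and SF3B1 (0.01) had TATGGAAA as LSM4 does.

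The place of TXNL4A and TXNL4B among all genes with these letters was read in the same way, as a description. The 775 tested genes with TATGGAAA had a median log2 fold change of -0.136, with quartiles of -0.43 and 0.049. The medians were 0.00191 for all 10173 genes and 0.0187 for those without TATGGAA. These groups were not matched for 3′ UTR length, and no unrelated letters were searched for comparison, so the reason for the difference was not tested. TXNL4A, chosen for its value of -2.38, was the single gene of the 775 at or below it (0.129%). Of all 10173 genes 7 were (0.0688%), 6 of them without TATGGAA in the 3′ UTR. NUF2, the gene targeted by the siRNA, is among these 6, at -2.99. Its coding sequence holds 2 TATGGAA, and only 3′ UTRs were searched for this count. The value of TXNL4B was met or exceeded by 30.8% of the 775, beside 49.6% of all 10173 genes. A copy of TATGGAA as close to the stop codon as that of TXNL4A was uncommon: 2.63% of the 1637 genes had their first copy at or before base 45, and the median first copy began at base 1245. TATGGAAA with a first TATGGAA at or before base 45 was held by 18 tested genes, TXNL4A among them. Their median log2 fold change was -0.336 (quartiles -0.831 and -0.158), and 11.1% were at or above TXNL4B. Base 45 was set by the copy in TXNL4A, and the -2.38 of TXNL4A is in this median. These figures therefore only describe the 18 genes. LSM3, also among the 18, with a copy that starts at base 19, had a log2 fold change of 0.03. Whether the position has a part in these values was not tested.

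Both higher genes of the lists act at other steps. PHF5A, a small subunit of SF3b in the U2 snRNP, had 23.8, 20.2 and 19.9 FPKM in siCtrl and 41.9, 30.9 and 31.7 FPKM in siNUF2. It rose by 0.73 on the log2 scale (SE 0.15, adjusted p = 0.0372). PRPF19, the ubiquitin ligase of the complex that joins as the spliceosome is activated, had 81.5, 79.3 and 72.0 FPKM in siCtrl and 110.7, 103.4 and 98.3 FPKM in siNUF2 (log2 fold change 0.44, SE 0.09, adjusted p = 0.0401). The libraries of both genes did not overlap between groups, but each call was lost without any 1 library (adjusted p 0.0572 to 0.123 for PHF5A and 0.0710 to 0.151 for PRPF19). In edgeR's fit with the replicate block both were called (adjusted p = 0.00352 and 0.00441). By the F-test on log2(FPKM + 1) neither was (adjusted p = 0.179 and 0.113).

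In the other lists no gene passed the test, and the gene with the largest change in size is given. Nearest to U5 were ZNHIT2 of the 4 U5 assembly factors (log2 fold change -0.26, adjusted p = 0.489) and SART1 of the 3 tri-snRNP joining proteins (0.33, adjusted p = 0.0888, and 0.0185 with the block). PRPF31 of the 6 U4/U6 proteins was at 0.32 (adjusted p = 0.149, and 0.0469 with the block). WBP4, one of 7 proteins of the B complex, in which the tri-snRNP has just joined, had 0.81 (adjusted p = 0.0591, and 0.00906 with the block). LUC7L2 of the 6 U1 proteins had 0.36 (adjusted p = 0.221, and 0.0410 with the block).

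On the log2 scale SNRPE of the 7 Sm core proteins was at 0.21 (adjusted p = 0.281), DHX38 of the 6 helicases 0.17 (adjusted p = 0.483) and PDCD7 of the 9 minor spliceosome proteins 0.38 (adjusted p = 0.158). The medians of the lists lay between -0.04 for the U5 assembly factors and 0.16 for the minor spliceosome proteins.

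**Figure D4:**
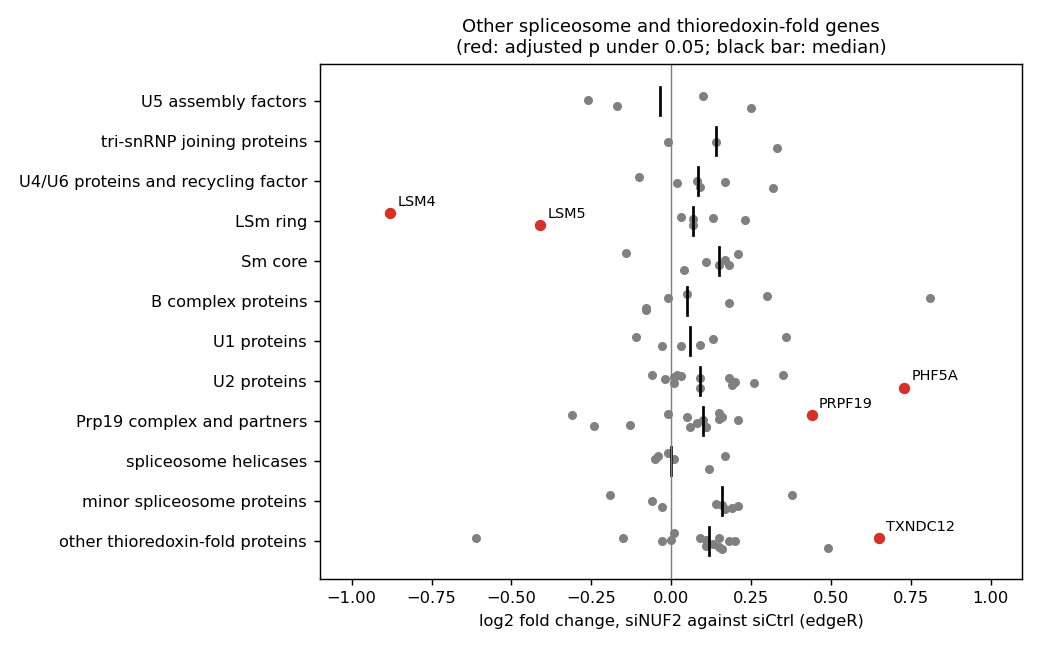
The log2 fold change in siNUF2 against siCtrl (x axis, edgeR) of 84 spliceosome genes in 11 lists and of 16 other thioredoxin-fold genes, 1 point per gene, in red at an adjusted p under 0.05, with the list median as a black bar. The red points are LSM4 at -0.88, LSM5 at -0.41, PHF5A at 0.73, PRPF19 at 0.44 and TXNDC12 at 0.65, and all medians lie between -0.04 and 0.16.

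Other proteins with a thioredoxin fold were tested as 16 genes, of which 1 passed, beside 3.99% of all genes tested. This was TXNDC12, an oxidoreductase of the endoplasmic reticulum, which rose from 26.8, 28.2 and 23.3 FPKM in siCtrl to 38.9, 41.8 and 40.3 FPKM in siNUF2 (log2 fold change 0.65, SE 0.10, adjusted p = 0.0149). Its call held without each of 3 libraries and was lost without each of the other 3 (adjusted p up to 0.0611). The median of the 16 was 0.12. With the block, which called 14.5% of all genes tested, TXNDC17 was lower (log2 fold change -0.62, adjusted p = 0.00552) and TXNDC12 and TMX4 were higher (TMX4 0.48, adjusted p = 0.0158).

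The genes around TXNL4A were read to see whether the stretch of chromosome 18 shared its pattern. Within 500 kb there were 15 genes, of which 7 were tested. None was called (0 of 7 by edgeR's quasi-likelihood test, beside 3.99% of all genes tested). At an unadjusted p under 0.05 there was 1 of the 7, beside 2129 of the 11725 genes tested. All 7 had log2 fold changes above 0, from 0.10 to 0.66. RBFA, a ribosome-binding factor of mitochondria that starts 439 bp away on the other strand, had 2.40, 2.27 and 1.99 FPKM in siCtrl and 2.10, 2.87 and 2.18 FPKM in siNUF2 (log2 fold change 0.13, 95% interval -0.26 to 0.51, adjusted p = 0.763). HSBP1L1, whose end lies 7 bp from that of TXNL4A, was at 0.10 (95% interval -0.43 to 0.63, adjusted p = 0.873).

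Farther away, SLC66A2 had 0.17 (adjusted p = 0.623), CTDP1 0.13 (adjusted p = 0.781), AC068473 0.66 (adjusted p = 0.382) and AC139100 (ENSG00000278000) 0.42 (adjusted p = 0.604). ADNP2, a zinc finger protein gene 75312 bp away, had 4.52, 5.07 and 4.94 FPKM in siCtrl and 6.74, 5.86 and 6.28 FPKM in siNUF2 without overlap (log2 fold change 0.40, 95% interval 0.14 to 0.65, adjusted p = 0.105, and 0.0443 with the block). The lowest bound of the 7 intervals was -0.43.

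**Figure D5:**
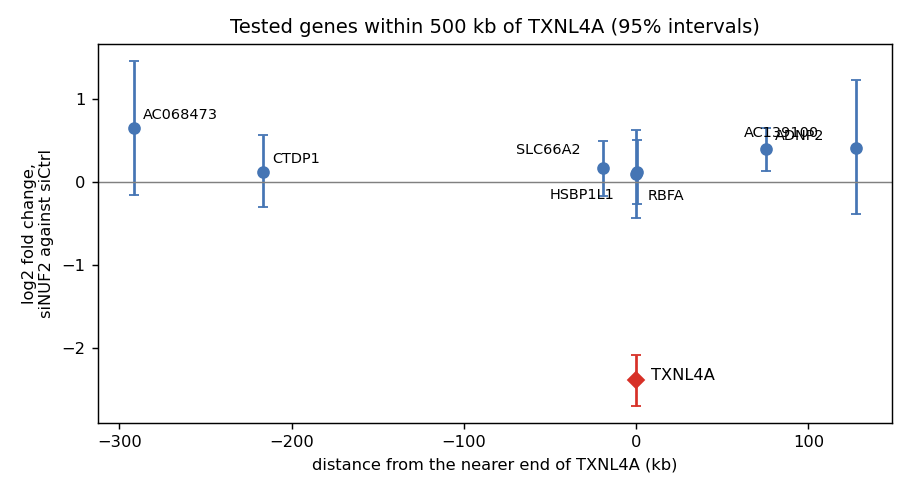
The log2 fold change in siNUF2 against siCtrl (y axis, with 95% intervals) of TXNL4A (red diamond) and of the 7 tested genes within 500 kb (blue), by the distance in kb from the nearer end of TXNL4A. The blue points lie between 0.10 and 0.66 and TXNL4A at -2.38. The interval of TXNL4A is a description only, as the gene was chosen for its difference.

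The genes whose levels were most like those of TXNL4A over the 6 libraries were found by the root mean square difference of log2 CPM centred on each gene's mean. They were IPPK (0.33), KLHL5 (0.34), NUF2 (0.40), SNX30 (0.40) and THAP12 (0.41), on chromosomes 9, 4, 1, 9 and 11. IPPK, an inositol phosphate kinase, had 4.40, 4.90 and 5.11 FPKM in siCtrl and 1.47, 1.11 and 1.63 FPKM in siNUF2. SNX30, a sorting nexin, had 3.32, 3.71 and 3.41 FPKM in siCtrl and 1.18, 1.04 and 1.13 FPKM in siNUF2. As likeness over these 6 libraries is set by the difference between the groups, it describes genes that were lower in siNUF2 by a similar amount, and none of the 5 is in the spliceosome lists.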

How the data were processed

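Libraries of 8505C cells (3 siCtrl, 3 siNUF2) were grouped by the sample labels. The authors made poly(A) libraries and used fastp for read quality, HISAT2 for alignment to GRCh38 and StringTie for quantification. Versions, strand setting and the tool behind the counts are not given in the sources used here. The authors deposited FPKM, which adjust for gene length and depth, and raw counts per gene, and all 12 value columns were used.

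Counts were fitted for genes averaging 1 FPKM or more with edgeR 4.0.16 (TMM, quasi-likelihood test, Benjamini-Hochberg over 11725 genes, R 4.3.3). DESeq2 1.42.0, limma 3.58.1 on log2(FPKM + 1) and the F-test named by the study were alternatives. The code was tested on simulated data. FPKM are compared between genes, and fold changes come from counts. Replicate libraries were no copies (chi-square per degree of freedom 54.7 to 77.7). Deviations from the group means correlated positively between libraries of the same number (0.418 to 0.539) and negatively between others (-0.316 to -0.125). As the deviations of a gene sum to 0 within a group, the negative values are not separate evidence. The main fit and its intervals took no account of these numbers, which come from the labels. The fit with the number as a block, which treats libraries of the same number as paired, was an alternative. What a number shares is not stated.

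The 9 genes and the lists (11 of spliceosome proteins, 1 of thioredoxin-fold proteins, 3 of cell type markers) were chosen with earlier results of these data known. Named genes are the 9, NUF2, markers, the genes called in each list or else that with the largest change, tested neighbours within 500 kb, and the 5 most like TXNL4A. TXNDC17, TMX4 and the spliceosome genes listed by their 3′ UTR letters lie outside that rule and were named after their values were seen. 3′ UTRs of at least 50 nt came from GENCODE release 44, and the printed windows match GRCh38. Of 32985 genes in the table, 32855 matched it by ID. The result for 1 marker is not reported here.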

Additional observations from a re-analysis of the deposited data

How the results depend on the processing

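Of the 8 genes other than TXNL4A, 0 passed the test at every setting tried except the replicate block, where 1 (DDX23) did, and the block changed no other call among them. Over all settings their adjusted p ran from 0.0278 to 0.490 for DDX23, from 0.0701 to 0.678 for CD2BP2, and upward from 0.146 for the other 6. The log2 fold change of TXNL4A was -2.40 to -1.98 across fits (-1.98 on log2(FPKM + 1), where the added 1 shrinks low values) and -2.49 to -2.32 leaving out 1 library.

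Changes of sign were confined to values near 0. TXNL4B was at -0.02 with library totals alone, with a filter at 5 FPKM and with limma on log2(FPKM + 0.1), at -0.01 with limma or the F-test on log2(FPKM + 1), and at -0.03 to 0.03 leaving out 1 library. Leaving out 1 library gave 0.00 to 0.30 for PRPF8, -0.03 to 0.23 for SNRNP200 and -0.07 to 0.07 for SNRNP40.

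The counts of genes called depended on the fit. Of all genes 468 were called, against 972 with DESeq2, 78 with the F-test, 188 with no filter, 1705 with the replicate block and 124 to 251 leaving out 1 library, fewest without siNUF2 library 1. For the 84 spliceosome genes, 4 became 7, 1, 1, 10 and 1 in that order of settings, LSM4 being called in every leave-out and LSM5 by the F-test. For the 16 thioredoxin-fold genes, 1 became 3 with DESeq2, 0 with the F-test, 3 with the block and 0 to 1 leaving out 1 library. The lower numbers without a filter came with more genes tested, and those leaving out a library with fewer samples. The cause of the other shifts was not tested. The lowest count of any of the 9 genes in a library was 831.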
